A study of Homo sapiens with 2 samples.

Results

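The genes described are the enzymes that make or recover nucleotides for DNA: RRM1, RRM2 and RRM2B, TYMS, DUT, TK1, DTYMK, DCK and UCK2. Their probes were found through the RefSeq accession that the array files give, or through the gene symbol or an older alias where the accession had no match. They are 9 of the 19218 genes that passed the filter on dim probes, and 14 of the 41000 gene probes on the array. Of the 14 probes, 13 passed that filter and stand for all 9 genes. The probe that did not pass carries the older name C2orf48, which the RefSeq gene table lists as an alias of RRM2, and it was not well above background in either channel of either array.

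The values come from PC3, an established line derived from a bone metastasis of prostate cancer, after transient knockdown of SUB1, a transcriptional coactivator that binds DNA. The first array compared PC3 cells treated with SUB1 siRNA 1 (Cy5) with cells treated with the Non-T control siRNA (Cy3), and the other compared SUB1 siRNA 2 (Cy5) with Non-T siRNA (Cy3). All cells had been transfected and were harvested 72 h after the first transfection. The 2 arrays lay on 1 slide, with 1 array for each siRNA, so a value for a single siRNA has no biological replicate. The dyes were not swapped, so the siRNA and the dye of a channel cannot be told apart, and neither can fewer cells in a cell cycle phase and less RNA per cell.

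DNA synthesis needs the 4 deoxynucleotides in balance, and most of the enzymes that supply them are made mainly when cells prepare to copy their DNA. Ribonucleotide reductase, built from RRM1 with RRM2 or RRM2B, turns ribonucleotides into deoxyribonucleotides and is the rate-limiting step of the supply. TYMS makes the thymidine nucleotide from deoxyuridine monophosphate, which DUT provides by hydrolysing dUTP. TK1 recovers thymidine from outside the pathway, and DTYMK adds the next phosphate to the product of both routes. DCK phosphorylates deoxycytidine and other deoxynucleosides, and UCK2 phosphorylates uridine and cytidine.

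Ratios are given throughout on the log2 scale, knockdown (Cy5) over Non-T control (Cy3). SUB1 itself, on its brightest probe, was at -3.30 (siRNA 1) and -3.26 (siRNA 2), which left 10.2% and 10.4% of the control signal. Its other probes left 9.81% and 11.2%, 7.42% and 8.85%, and, on the dimmest, 28.6% and 33.8%. In Cy3, 54.3% of gene spots stood well above background on either array, in Cy5 it was 67.2% (siRNA 1) and 64.5% (siRNA 2), and none was saturated. The median log2 ratio of all genes was 0.02 on each array. Of the markers of the cell line, KRT8, KRT18, EPCAM, CDH1 and VIM had at least 1 probe well above background on both arrays. CDH1 was dim, with signals from 115 to 192. Of markers of other cells, the leukocyte gene PTPRC was not well above background, whereas the endothelial gene PECAM1 and the fibroblast gene COL1A1 were dim but well above it in both channels, with signals from 95.7 to 132 and from 130 to 241. A single KLK3 probe (A_24_P108401) went against the low prostate-specific antigen known of PC3, with signals from 18172 to 26862, whereas the other KLK3 probes lay between 61.3 and 90.04.

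The promoters of 8 of the 9 genes are in the RefSeq table used here (GRCh38.p14), with 13 listed start sites, each covering 250 bases before and 50 bases after the start. They were searched on both strands for 3 short motifs known from cell cycle genes. An E2F site was searched as TTTCCCGC, TTTGGCGC, TTTCGCGC or TTTGCCGC, a CCAAT box as CCAAT, and a cell cycle homology region (CHR) as TTTGAA or TTCGAA. These motifs do not contain each other. E2F is the transcription factor family of the start of DNA synthesis, and the CCAAT box is bound by NF-Y. A match is a description of the letters and not a binding site.

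TYMS and DTYMK, successive enzymes, each have a single listed start and are shown with the last 130 bases before it. The TYMS stretch is chr18:657523-657652 (plus strand) and the DTYMK stretch is chr2:241686816-241686945 (minus strand). The TYMS stretch overlaps the noncoding gene TYMSOS. Capitals mark the motif matches. The TYMS match is an E2F site read on the other strand, which begins 39 bases before the start. In DTYMK they are CCAAT boxes beginning 92 and 24 bases before the start and a CHR beginning 84 bases before it.
TYMS: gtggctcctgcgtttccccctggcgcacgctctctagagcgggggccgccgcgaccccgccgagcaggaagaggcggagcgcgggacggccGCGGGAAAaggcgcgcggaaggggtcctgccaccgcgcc
DTYMK: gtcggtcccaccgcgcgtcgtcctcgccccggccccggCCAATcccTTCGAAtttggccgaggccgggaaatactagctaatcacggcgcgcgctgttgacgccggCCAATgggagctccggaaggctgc

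TK1 and RRM2 each carry repeated CCAAT boxes before one of their listed starts, and DUT carries neighbouring E2F sites. For these genes, which have several starts, short stretches around the matches are shown, with the matches in capitals. The RRM2 boxes begin 123, 93 and 66 bases before the start, and the letters after each of them are nearly the same. The TK1 boxes lie on the other strand and begin 77 and 46 bases before the start. The DUT sites begin 42 and 27 bases before the start. The stretches are chr2:10122612-10122631, chr2:10122642-10122661 and chr2:10122669-10122688 (plus strand) for RRM2, chr17:78187114-78187133 and chr17:78187083-78187102 (minus strand) for TK1, and chr15:48332151-48332180 (plus strand) for DUT.
RRM2, upstream: gcagCCAATgggaagggtcg
RRM2, middle: acagCCAATgggaagggccg
RRM2, downstream: aaagCCAATgggaagggccg
TK1, upstream: gctgATTGGccccatggcgg
TK1, downstream: cgtgATTGGccagcacgccg
DUT: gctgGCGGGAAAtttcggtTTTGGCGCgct

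Over all genes of the table, 3.99% had an E2F site, 39.7% a CCAAT box and 19.5% a CHR in at least one window. Of the 8 members with a window, 3 had an E2F site (TYMS, DUT and DCK), 5 a CCAAT box (TK1, RRM1, RRM2, DTYMK and UCK2) and 3 a CHR (RRM1, DUT and DTYMK). The match of DCK began 22 bases into the transcript. CCAAT boxes were found both in RRM2, with a mean log2 ratio of -1.20, and in DTYMK, with -0.24. E2F sites were found both in TYMS, with a mean of -0.94, and in DCK, with -0.28. No match in these windows says only that the letters are not there. Whether the motifs bear on the ratios was not tested.

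Most of the enzymes had a lower signal after SUB1 knockdown, and by their mean ratio over both siRNAs TK1 and RRM2 were the lowest. By the rule of the study's methods, a gene was called at 2-fold (absolute log2 ratio of at least 1) on an array. With siRNA 1, TK1, RRM2 and UCK2 were at least 2-fold lower, and with siRNA 2, TK1, RRM2 and TYMS were. This made 3 of 9 genes with each siRNA, beside 0.609% of all genes with siRNA 1 and 1.07% with siRNA 2. None was at least 2-fold higher, beside 0.208% and 0.614% of all genes. The 9 genes had a median log2 ratio of -0.76 (siRNA 1) and -0.81 (siRNA 2), and 8 of 9 were below 0 with each, beside 45.9% and 46.4% of all genes. RRM2B was the exception. At a fold of 1.5, 6 of 9 were lower with siRNA 1 and 5 of 9 with siRNA 2, beside 3.02% and 4.23% of all genes. The members were chosen with earlier results of these data known, so these shares are a description and not a test.

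The calls with siRNA 1 lay close to the threshold. With median centring of the arrays in place of loess, the smooth correction for brightness, 0 members were 2-fold lower with siRNA 1, and the median of the members was -0.46 with siRNA 1 and -0.50 with siRNA 2, while the median of all genes moved up to 0.13 and 0.12. That setting also turned the balance of all genes: 117 lower and 40 higher with siRNA 1 became 56 and 137, and 205 and 118 with siRNA 2 became 101 and 266.

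**Figure D1:**
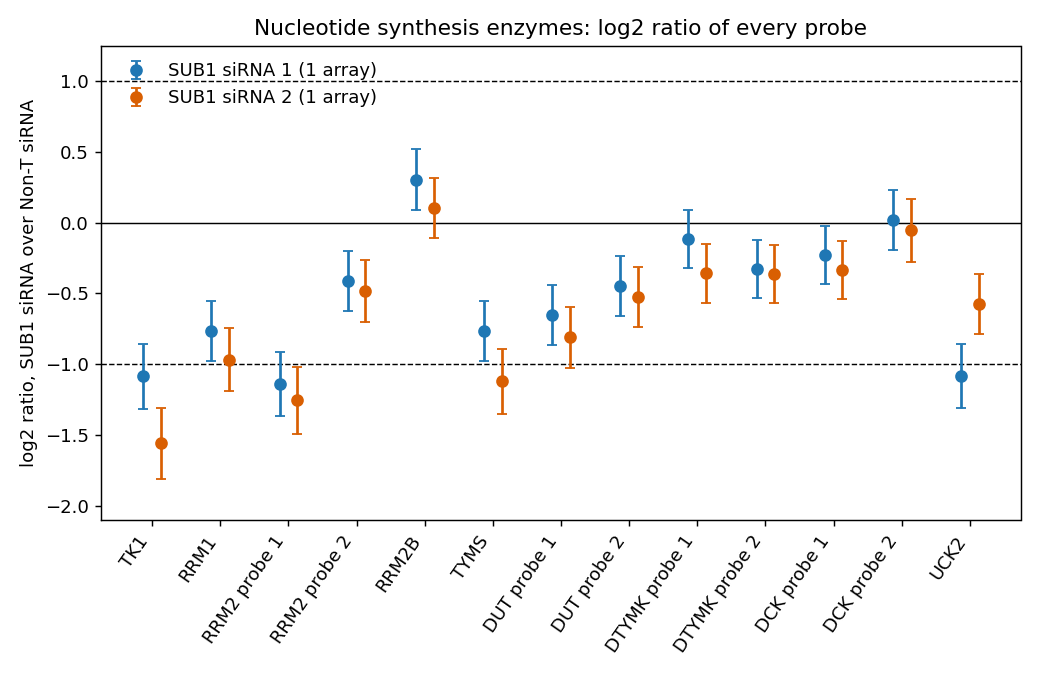
Log2 ratio of knockdown over Non-T control (vertical axis) for each of the 13 probes that passed the filter (horizontal axis; probe 1 is the brighter one), on the siRNA 1 array and the siRNA 2 array. Each point is 1 spot on 1 array, bars are the scanner software's technical error, and dashed lines mark 2-fold. TK1 is lowest with siRNA 2 (-1.56), RRM2B lies above 0 with both siRNAs, and UCK2 is the gene whose point is lower with siRNA 1.

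Every member probe was spotted once, so its error is the technical error of its ratio from Agilent's software, which lay between 0.204 and 0.254 on the log2 scale for the 13 probes. This error covers the spot and not the culture. Signals are given in array units after background correction and loess, and are compared only within a probe. They were not scaled between the arrays, so a comparison across arrays also holds their difference in brightness.

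Of ribonucleotide reductase, RRM1 and RRM2 had lower signals with both siRNAs, and RRM2B did not. The RRM1 probe, for the large catalytic subunit (chr11:4116523-4116582 in hg18, the build of the array design), had a signal of 3334 in Non-T and 1962 in SUB1 siRNA 1-treated cells, and of 2718 in Non-T and 1389 in SUB1 siRNA 2-treated cells. Each knockdown value lay below the control value of its own array. The log2 ratios were -0.76 ± 0.213 and -0.97 ± 0.221 (technical error), a 1.70-fold and a 1.96-fold lower signal that missed 2-fold with either siRNA.

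RRM2 encodes the small subunit that holds the tyrosyl radical and is made and degraded with the cell cycle. Its brighter probe (chr2:10186825-10186884, hg18) had a signal of 1497 in Non-T and 679 with siRNA 1, and of 1227 in Non-T and 514 with siRNA 2. These are log2 ratios of -1.14 ± 0.230 and -1.25 ± 0.236, or 2.20-fold and 2.39-fold lower. The dimmer probe (chr2:10187938-10187997, hg18) had 407 in Non-T and 306 with siRNA 1, and 332 in Non-T and 237 with siRNA 2. Its log2 ratios of -0.41 and -0.48 have the same direction and are smaller than those of the brighter probe by more than the technical error. With the mean of both probes, RRM2 was -0.78 and -0.87 and was no longer called.

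RRM2B encodes the other small subunit, which serves DNA repair and mitochondrial DNA in resting cells. Its probe (chr8:103286351-103286410, hg18) had a signal of 217 in Non-T and 268 with siRNA 1, and of 195 in Non-T and 209 with siRNA 2. The knockdown signal was higher on each array. The siRNA 2 value lay below the control value of the siRNA 1 array, but these signals were not scaled between the arrays. On one scale, the knockdown channel differed between the arrays (siRNA 2 minus siRNA 1) by -0.18 and the control channel by 0.03. The log2 ratios were 0.30 ± 0.214 and 0.10 ± 0.212, and the latter was smaller than its technical error. The ratios of the small subunits had opposite signs on both arrays, but that of RRM2B with siRNA 2 was within its technical error. Of all genes, 87.6% had a lower ratio than RRM2B with siRNA 1 and 62.9% with siRNA 2.

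**Figure D2:**
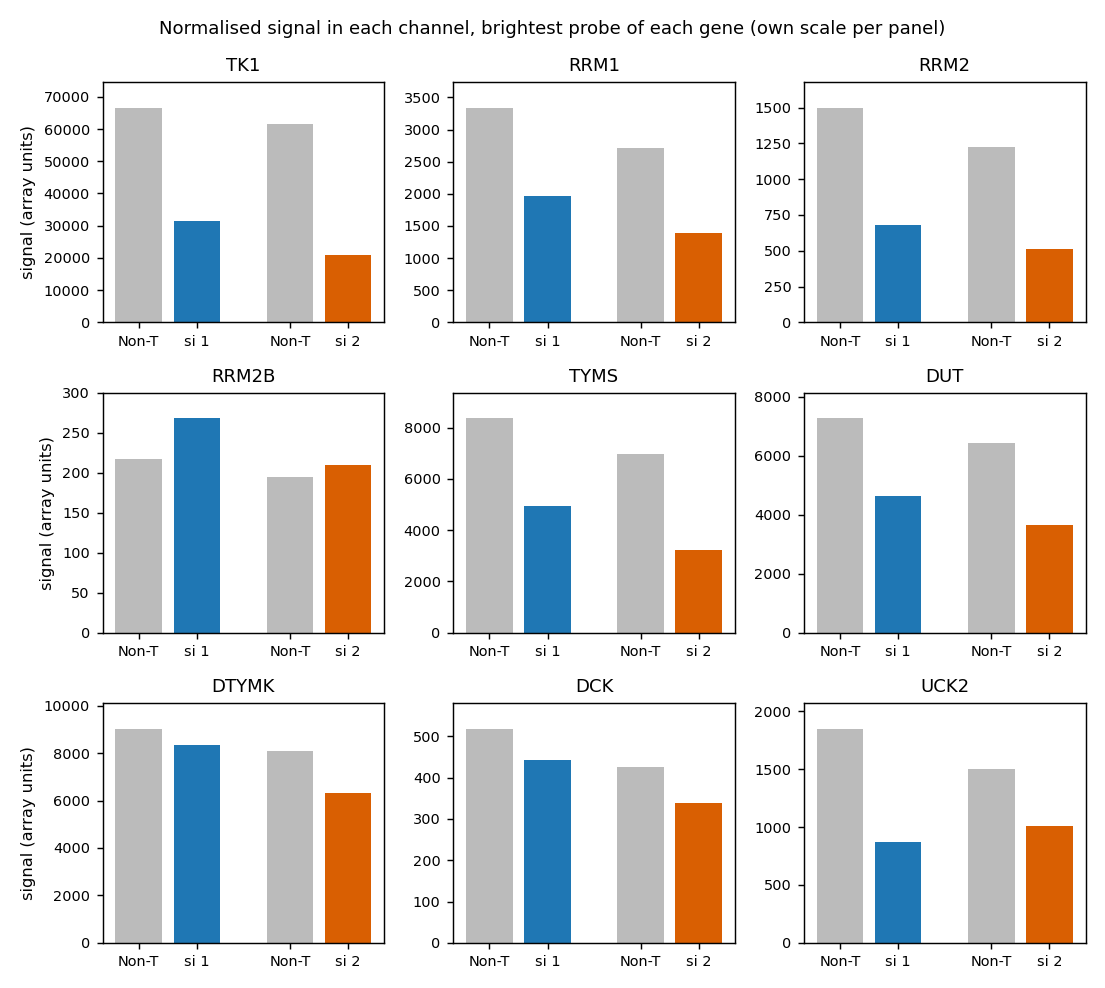
Signal in array units (vertical axis, from 0, own scale in each panel) of the brightest probe of each of the 9 genes in the Non-T channel (grey, Cy3) and the SUB1 siRNA channel (coloured, Cy5) of the siRNA 1 array (left pair) and the siRNA 2 array (right pair); each bar is 1 spot, with no replicate. TK1 has 66521 in Non-T and 31335 with siRNA 1, and the coloured bar is the taller of its pair only for RRM2B.

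The thymidylate branch held the lowest value of all. TK1 (chr17:73681788-73681847, hg18), the cytosolic thymidine kinase and a common marker of dividing cells, had a signal of 66521 in Non-T and 31335 with siRNA 1, and of 61576 in Non-T and 20879 with siRNA 2. Each knockdown value lay far below the control value of its own array. The log2 ratios were -1.09 ± 0.230 and -1.56 ± 0.254, so that 47.1% and 33.9% of the control signal was left. With siRNA 2 only 0.208% of all genes had a lower ratio. With siRNA 1, TK1 missed the threshold with median centring (-0.64) and narrowly with the authors' log2 ratios (-0.98), and with siRNA 2 it was -1.09 and still called under median centring.

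TYMS, thymidylate synthase and the target of fluorouracil (chr18:663276-663335, hg18), had a signal of 8361 in Non-T and 4921 with siRNA 1, and of 6979 in Non-T and 3206 with siRNA 2. Its log2 ratios were -0.76 ± 0.215 and -1.12 ± 0.227, which is 1.70-fold and 2.18-fold lower. It was called with siRNA 2 but not with siRNA 1, and with median centring it was -0.82 with siRNA 2 and not called.

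DUT hydrolyses dUTP, keeps uracil out of DNA and makes the substrate of TYMS. Its brighter probe (chr15:46421055-46421550, hg18) had a signal of 7273 in Non-T and 4628 with siRNA 1, and of 6423 in Non-T and 3666 with siRNA 2. The log2 ratios were -0.65 ± 0.211 and -0.81 ± 0.215. A second probe under the name DUT lies on another chromosome in the array files (chr19:57646905-57646964, hg18) and may read a copy of the gene, so its log2 ratios of -0.45 and -0.53 are uncertain as values of DUT.

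DTYMK, the thymidylate kinase that follows both TYMS and TK1, was nearer to 0 than either. Its brighter probe had a signal of 9033 in Non-T and 8350 with siRNA 1, and of 8106 in Non-T and 6322 with siRNA 2, log2 ratios of -0.11 ± 0.204 and -0.36 ± 0.207. The first was smaller than its technical error, and its direction with siRNA 1 turned to 0.21 under median centring. The dimmer probe had -0.33 and -0.36. The array files place both on an unassigned part of chromosome 2 in hg18. Thymidylate kinase was thus not called, with values of 1.08-fold and 1.28-fold lower beside 2.12-fold and 2.95-fold for TK1.

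The remaining kinases differed from each other. UCK2 (chr1:164143746-164143805, hg18), the uridine-cytidine kinase that activates ribonucleoside drugs, had a signal of 1850 in Non-T and 872 with siRNA 1, and of 1499 in Non-T and 1006 with siRNA 2. Its log2 ratios were -1.08 ± 0.229 and -0.58 ± 0.211, a 2.12-fold and a 1.49-fold lower signal. It was called with siRNA 1 but not with siRNA 2.

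DCK, the deoxycytidine kinase that activates gemcitabine and cytarabine, had a signal of 519 in Non-T and 443 with siRNA 1, and of 426 in Non-T and 338 with siRNA 2 on its brighter probe (chr4:72115031-72115090, hg18). The siRNA 1 value lay above the control value of the siRNA 2 array, but these signals were not scaled between the arrays. On one scale, the control channel differed between the arrays by -0.07, less in size than the siRNA 1 ratio. The log2 ratios were -0.23 ± 0.206 and -0.33 ± 0.208. The dimmer probe (chr4:72114797-72114856, hg18) had 0.02 and -0.05, both within its technical error of 0.214 and 0.221, so its signal differed from the control by less than the error of a spot.

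The only replication in the series is that of the siRNAs, which were taken as a pair of SUB1 knockdowns and tested with limma for a mean log2 ratio other than 0. Variation among Non-T cultures does not enter this test, and a dye bias shared by both arrays would be part of the tested mean. The SE is that of limma, which draws the spread of each gene toward that of all genes. None of the 9 genes passed an adjusted p of 0.05 (Benjamini-Hochberg over 19218 genes), beside 0.00520% of all genes, which is SUB1 alone. At an unadjusted p under 0.05, 7 of 9 genes were lower and none was higher, beside 9.90% of all genes that were lower and 11.0% that were higher. The means were -1.32 for TK1 (SE 0.147, limma adjusted p 0.114) and -1.20 for RRM2 (SE 0.0982, limma adjusted p 0.114). RRM1, TYMS and DUT had the same adjusted p with means of -0.87, -0.94 and -0.73, and UCK2 had a mean of -0.83 and an adjusted p of 0.123. DCK had a mean of -0.28, DTYMK of -0.24 and RRM2B of 0.20, with limma adjusted p-values of 0.219, 0.303 and 0.339. When dim probes were kept in the table, 3 of the 9 passed in limma (RRM2 and TK1 at an adjusted p of 0.0469 and RRM1 at 0.0493), beside 0.423% of all genes in that table.

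The ratios with siRNA 2 were lower than those with siRNA 1 for 8 of 9 genes and higher for UCK2, beside 9689 lower of all 19218 genes. The median difference (siRNA 2 minus siRNA 1) was -0.20 for the members and -0.0022 for all genes. These are differences between single arrays and were not tested. UCK2 had the widest difference, 0.51 with a technical error of 0.311, and 8.92% of all genes differed by more. Between the arrays its knockdown channel differed by 0.43 on the log2 scale and its control channel by -0.08, after the channels had been put on one scale. TK1 differed by -0.47 and TYMS by -0.36, with technical errors of 0.342 and 0.313, and their knockdown channels differed by -0.42 and -0.41 and their control channels by 0.06 and -0.05. For the other 6 genes the difference lay between -0.25 and -0.11 and was within its technical error.

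The other steps of nucleotide metabolism stayed nearer to 0 by their medians. The 8 genes that make pyrimidines from scratch had medians of 0.02 and -0.06 and none was called. CAD, which carries the first activities of that route, had the lowest mean of them with log2 ratios of -0.37 and -0.57. NME2, a nucleoside diphosphate kinase, had -0.03 and -0.25, and CTPS2, a CTP synthase, had -0.12 and -0.07.

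The 7 genes of the thymidylate cycle and one-carbon metabolism that serve TYMS, which include the dCMP deaminase DCTD, had medians of -0.17 and -0.24, and none was called. MTHFD1, a folate enzyme with several activities, had -0.54 and -0.66, MTHFD1L, its mitochondrial relative, had -0.17 and -0.36, and SHMT1, which charges folate from serine, had -0.24 and -0.24. Dimmer MTHFD1L probes past the filter spread on both sides of 0, with -0.48 and -0.56, -0.33 and -0.22, and 0.11 and 0.14. A dimmer SHMT1 probe past the filter had -0.42 and -0.22.

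The 14 genes of purine synthesis had medians of -0.14 and -0.34, with 12 and 13 of them below 0 and none called. Of all genes, 45.9% and 46.4% were below 0. PRPS2, which makes the ribose donor, had -0.80 and -0.54, ADSL, adenylosuccinate lyase, had -0.80 and -0.48, and IMPDH2, the first step toward guanine nucleotides, had -0.61 and -0.49. A dimmer PRPS2 probe had -0.44 and -0.19. In the 9 other salvage genes the medians were 0.02 and -0.09. UCKL1, a relative of UCK2, was at least 2-fold lower with siRNA 2 (-1.06) and had -0.45 with siRNA 1. This order of the siRNAs is the reverse of that of UCK2. DGUOK, the mitochondrial deoxyguanosine kinase, had 0.11 and 0.72, and HPRT1, which recovers hypoxanthine and guanine, had -0.38 and -0.33.

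Among the 10 genes that break down nucleotides or clean the pool, the medians were -0.21 and -0.03, and none was called. PNP, purine nucleoside phosphorylase, had -0.84 with siRNA 1 and -0.40 with siRNA 2. NUDT1, which removes oxidised nucleotides, had -0.28 and -0.50, and ITPA, which removes inosine triphosphate, had -0.59 and -0.04. No gene of these lists passed a limma adjusted p of 0.05. At an unadjusted limma p under 0.05, 13 of their 48 genes were lower and none was higher. Of all genes, 9.90% were lower and 11.0% were higher by that rule.

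Origin licensing, another set of genes made before DNA synthesis, was taken for comparison. Its 14 genes had medians of -0.18 and -0.34, with 0 called with siRNA 1 and 2 with siRNA 2. Of all genes, 0.609% and 1.07% were at least 2-fold lower. At a fold of 1.5, 3 of the 14 were lower with siRNA 1 and 5 with siRNA 2. The shares of all genes were 3.02% and 4.23%. CDT1, which loads the MCM helicase, had -0.97 and -1.34, MCM7, a subunit of that helicase, had -0.83 and -1.02, and CDC6, a loading factor, had -0.60 and -0.99. By the brightest probe of each gene, CDT1 and MCM7 lay within the range of TK1, RRM1, RRM2 and TYMS with both siRNAs. CDC6 and the helicase subunit MCM5 (-0.37 and -0.98) did so with siRNA 2 only. A dimmer CDT1 probe had -0.56 and -0.91, which is nearer to 0 than that range and was not called. At an unadjusted limma p under 0.05, 7 of the 14 genes were lower and 1 was higher (ORC6, 0.37 and 0.34), beside 9.90% and 11.0% of all genes. The rest of the list spread on both sides of 0, up to 0.37 with siRNA 1 and 0.34 with siRNA 2, whereas RRM2B was the member of the nucleotide enzymes above 0. No test of the difference between the lists was made.

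The direction of these medians was not stable to the scaling. With median centring, where the median of all genes was 0.13 (siRNA 1) and 0.12 (siRNA 2), the median of purine synthesis turned to 0.08 with siRNA 1 and was -0.11 with siRNA 2, and that of origin licensing turned to 0.06 and was -0.19. The median of breakdown and pool cleaning turned to 0.02 and 0.12. The thymidylate and one-carbon list had 0.00091 and -0.16, pyrimidine synthesis had 0.28 and 0.14, and the other salvage genes had 0.33 and 0.15, whereas the members stayed below 0 at -0.46 and -0.50.

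**Figure D3:**
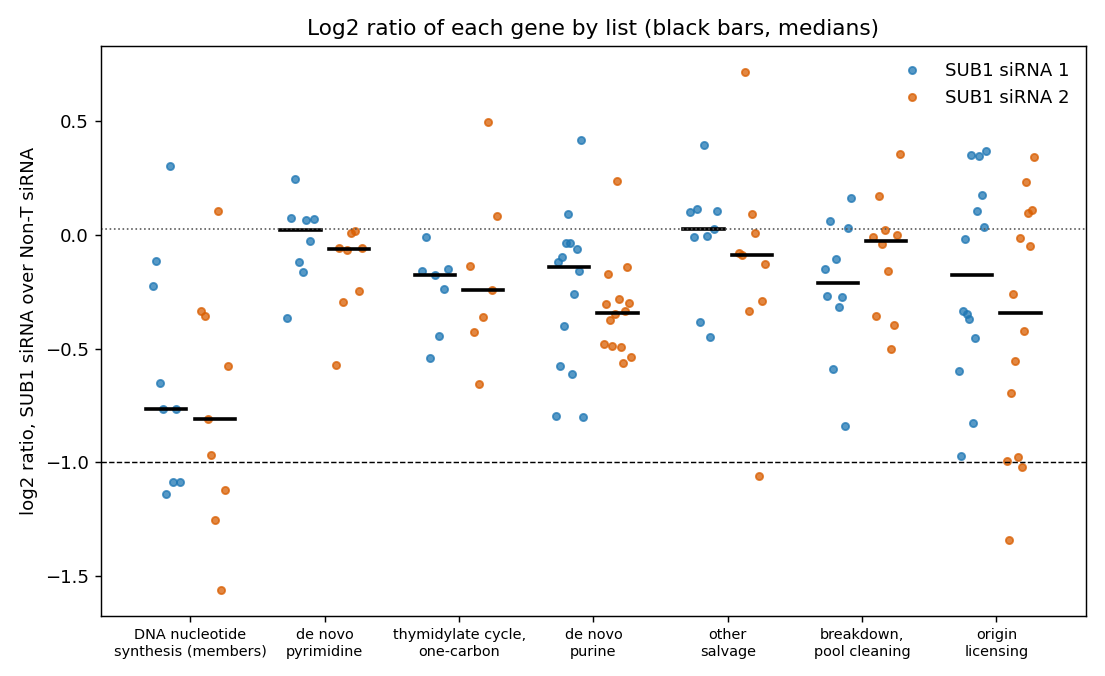
Log2 ratio of knockdown over Non-T control (vertical axis) of every gene in 7 lists (horizontal axis), with siRNA 1 (blue) and siRNA 2 (orange); each point is a gene, black bars are medians, the dotted line is the median of all genes (0.02) and the dashed line is 2-fold lower. The members have medians of -0.76 and -0.81, and the medians of the other lists lie between -0.34 and 0.02.

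Under the other ways of processing, all members but DTYMK with siRNA 1 kept their sign on both arrays. Over all settings that give 1 value per gene, TK1 lay between -1.15 and -0.64 with siRNA 1 and between -1.64 and -1.09 with siRNA 2, RRM2 from -1.16 to -0.78 and from -1.29 to -0.87, and TYMS from -0.76 to -0.46 and from -1.15 to -0.82. RRM2B stayed above 0 in all of them, between 0.27 and 0.43 with siRNA 1, and between 0.09 and 0.22 with siRNA 2. With siRNA 2 all its values but that with median centring were within the technical error of 0.212. In that setting the median of all genes was itself 0.12.

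**Figure D4:**
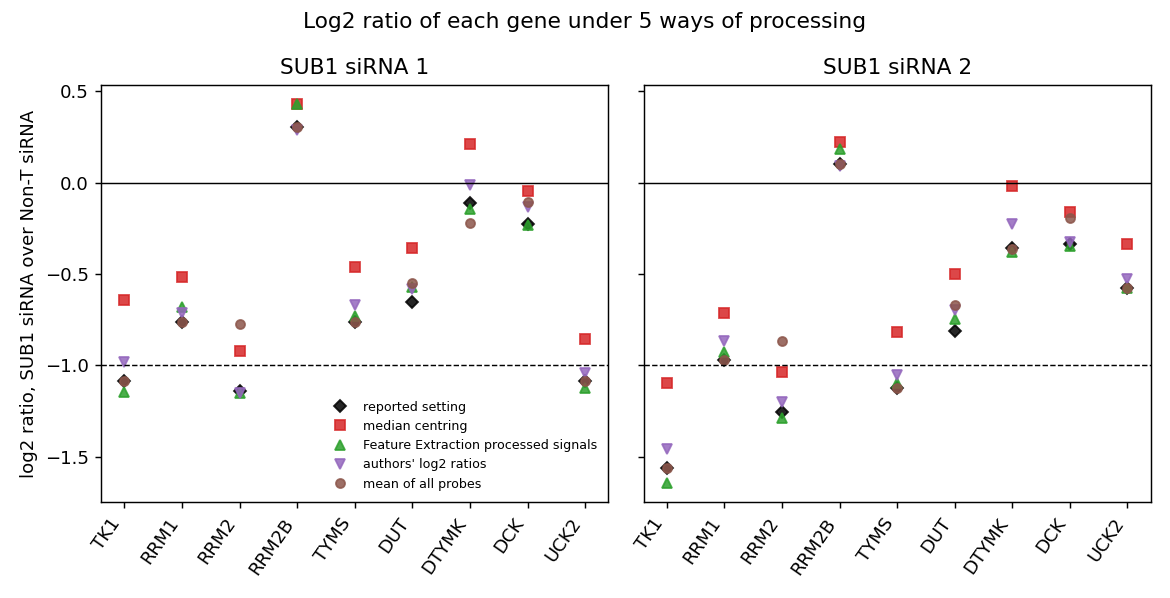
Log2 ratio of knockdown over Non-T control (vertical axis) of each of the 9 genes (horizontal axis) with siRNA 1 (left) and siRNA 2 (right) under 5 ways of processing, 1 symbol each; dashed lines mark 2-fold lower. Median centring (red squares) gives the highest value for most genes, for example -0.64 for TK1 with siRNA 1, and the mean of all probes (brown circles) moves RRM2 to -0.78 and -0.87.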

How the data were processed

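The authors scanned 2 dual-colour Agilent arrays with Feature Extraction 9.5.1.1 and deposited, for each spot, the intensity and local background of both channels, processed intensities, and log10 ratios of Cy5 over Cy3 with their technical error, which was turned to log2 here. A deposited table holds the authors' log2 ratios after loess on each array, and served as an alternative.

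Mean spot intensities, with the median local background, went through normexp (offset 50) and then loess within each array (span 0.3) in limma 3.58.1 under R 4.3.3. Control spots had no weight, and outlier spots (112 and 100) were left out. A probe passed if on both arrays a share of 0.5 or more of its spots stood well above background in either channel, and the brightest probe stood for its gene. Of 41000 probes, 23958 were named by accession, 2755 by symbol and 1032 by synonym in a RefSeq table of GRCh38.p14, and 13255 kept the name in the file. Probe coordinates are those of the array design (hg18). No gene annotation of that build was used, so exons are not given, and protein features were not analysed here.

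A gene was called at an absolute log2 ratio of 1 on an array. The mean over both siRNAs was tested with limma (intercept, eBayes, Benjamini-Hochberg over 19218 genes). The ratio of every array was read as Cy5 over Cy3, as the labels give the dyes. The sources used here do not say whether the arrays shared 1 Non-T extract, nor whether the siRNA samples came from separate cultures. The p-values therefore measure only the spread between these samples, which eBayes draws toward that of all genes. The number of arrays limits the precision. The processing was tested on simulated data. The members and the other lists were chosen with earlier results of these data known. The named genes were all members, SUB1, and of the other lists each gene past 2-fold on an array and the 3 with the largest absolute mean ratio. MCM5, ORC6 and DCTD are named in addition. Some markers and list genes are not reported here.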

Additional observations from a re-analysis of the deposited data

Results flagged for a closer look

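For the dimmer DCK probe (A_24_P89080) the signs were opposite, 0.02 (siRNA 1) and -0.05 (siRNA 2) on the log2 scale. The difference, siRNA 2 minus siRNA 1, was -0.0726, within the technical error of 0.308, and was not tested.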

How the results depend on the processing

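Of 444 comparisons of a value with its alternative, 43 moved by more than the tolerance, which was the technical error for a gene, the spread among spots for a median and 1.5 times for a count. A reversal was counted only for ratios called at 2-fold in the reported setting, and none of these reversed. Uncalled values could turn sign, as DTYMK with siRNA 1 and several list medians did with median centring. The settings for the filter on dim probes, outlier spots, the eBayes trend and scaling between arrays left the members' ratios unchanged, so their comparisons say little about the ratios. With median centring the members' median was -0.46 with siRNA 1 and -0.50 with siRNA 2, and 0 members were 2-fold lower with siRNA 1. With the processed signals of Feature Extraction the median was -0.68 with siRNA 1, with the authors' log2 ratios it was -0.67 and -0.70, and with the mean of all probes it was -0.67 with siRNA 2. At a fold of 1.5, 6 and 5 members were lower. Without a filter on dim probes, 3 members passed an adjusted p of 0.05 in limma, among 85 lower and 44 higher genes of 30482, against 1 lower gene in the reported setting. With Feature Extraction's processed signals 298 genes were 2-fold lower and 778 higher with siRNA 1, and 474 and 994 with siRNA 2. With the authors' log2 ratios these were 100 and 58, and 164 and 148. The cause of these shifts was not tested. The median of the members' mean ratio was -0.83, and -0.81 without the siRNA 1 array and -0.76 without the siRNA 2 array. Each ratio pairs a knockdown channel with the control channel of the same array, and limma was run on these ratios. A test within a single siRNA was not possible, because each has 1 array. A block for the slide was not run, since both arrays share it.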
